A study of Homo sapiens with 6 samples.

Results

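The genes described here carry glucose or lactate across membranes, together with TXNIP, which restrains glucose uptake. They were 10 named genes, taken out of 18404 measured genes: the hexose transporter genes SLC2A1, SLC2A3, SLC2A6, SLC2A8, SLC2A10, SLC2A12 and SLC2A13, the lactate transporter genes SLC16A1 and SLC16A3, and TXNIP. A gene was measured through the probe set whose annotation named it alone, and 8 of the 10 had such a probe set, 1 each. No probe set carried SLC16A1 or SLC16A3 as its single symbol, and these lactate transporters were not analysed here. The genes were chosen with their differences between the fractions and their levels per repetition already known, so those values are given as a description and not as a test. Counts of calls among them are given beside the shares over all genes and carry no weight of their own.

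The cells were HCT116, an established human colorectal carcinoma line, sorted into a CD133+ and a CD133- fraction. CD133 is a surface glycoprotein, encoded by PROM1, that is used to enrich tumour-initiating cells. Each fraction was measured on 3 arrays, numbered as repetitions 1, 2 and 3, and nothing in the labels says that these came from separate cultures or sorts, so the spread between them may be technical. Both fractions came from the same line, and no treatment was named for either. Signals are log2 values after Robust Multichip Average (RMA) processing, and differences are CD133+ minus CD133-, so that 1 unit is a doubling.

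Glucose enters most cells down its gradient through GLUT proteins, the products of the SLC2A genes. GLUT1 (SLC2A1) and GLUT3 (SLC2A3) are surface carriers with high affinity for glucose, and both are often raised in tumours and by hypoxia. Glucose is then broken down by glycolysis, and the lactate formed leaves through monocarboxylate transporters of the SLC16A family. TXNIP is an arrestin-domain protein that binds thioredoxin and promotes the internalisation of glucose transporters. Its own gene is switched on when glucose metabolites accumulate, through the factors MondoA (MLXIP) or ChREBP (MLXIPL) with their partner MLX.

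That glucose switch acts through a paired element in the TXNIP promoter, shown here. Printed below it is a stretch before the start of ARRDC4, another arrestin-domain gene known to respond to MondoA. The stretches were not aligned, and no correspondence between them was tested. The capitals mark the pair of boxes with its spacer in TXNIP, and the single CACGTG box in ARRDC4.

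TXNIP: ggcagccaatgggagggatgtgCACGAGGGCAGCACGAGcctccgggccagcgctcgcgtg

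ARRDC4: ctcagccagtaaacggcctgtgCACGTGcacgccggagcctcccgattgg

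The TXNIP stretch lies at chr1:145996629-145996689 on the minus strand and the ARRDC4 stretch at chr15:97960471-97960520 on the plus strand (RefSeq, GRCh38.p14). The marked TXNIP element began 88 bases before the annotated start. Searched on both strands of the 250 bases before each start, a pair of CACGNG boxes with 5 bases of any kind between them (N is any base) was found in 0.0456% of 35116 promoter windows, and the ARRDC4 window did not hold such a pair. The 6-base box CACGTG, which began 210 bases before the ARRDC4 start, was found in 6.34% of the windows, SLC2A13 included. The table held a window for 8 of the 10 genes. These are matches of letters and were not linked to binding here.

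PROM1 checked the sort. It measured 7.59, 7.36 and 7.09 in CD133+ repetitions 1, 2 and 3, against 5.30, 4.46 and 3.97 in CD133- cells. Its difference of 2.77 passed with the repetition number as a block (limma adjusted p = 0.0120). With group as the only term it did not pass (limma adjusted p = 0.142). The array medians lay between 5.44 and 5.60. Arrays of the same repetition deviated together, and repetition accounted for 64.9% of the variance over all probe sets, against 17.0% for fraction. Of the 6 epithelial markers, 5 lay above the median signal of the table, 5.53, and VIL1, a brush border gene, was the exception. Among markers of other cell types, 1 of 7 leukocyte, 1 of 7 fibroblast, 0 of 5 endothelial and 0 of 4 measured erythroid genes lay above it. SLC2A3 is also strongly expressed by leukocytes. Of the 7 leukocyte markers, 2 were higher and 5 lower in CD133+ cells, with a median difference of -0.07, and their summed log2 signal was 29.8 to 30.9 in CD133+ and 30.0 to 32.0 in CD133- cells. MS4A1 and LAPTM5 both differed by -0.28 and PTPRC, the pan-leukocyte marker, by 0.11, and none passed in either limma fit (adjusted p = 0.522, 0.552 and 0.691 with the block). PTPRC measured 2.45, 2.44 and 2.43 in CD133+ cells, against 2.28, 2.32 and 2.41 in CD133- cells, all under the median of the table. Both fractions came from an established line, HCT116. A part of leukocytes in the transporter levels was not tested.

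The other marker lists had 0 calls in either fit too, and the genes named are those of smallest p with the block. The epithelial list had 3 higher and 3 lower genes in CD133+ cells, with a median difference of -0.04. The fibroblast list had 1 higher and 6 lower (median -0.04). The endothelial list had 0 higher and 5 lower (median -0.03), and the erythroid list 2 and 2 (median -0.0039). KRT18 and KRT8, the paired keratins of simple epithelia, differed by -0.48 and -0.24, lower in 3 of 3 repetitions with fractions that did not overlap, and CDH1, encoding E-cadherin, by 0.40 (limma adjusted p = 0.0989, 0.336 and 0.334 with the block). Fractions apart in the direction of the keratins were seen in 4.52% of all genes. The genomic position of the probe set read for KRT18 was not checked, so its value may not come from KRT18 alone. The differences of the fibroblast genes COL1A1, COL3A1 and DCN were -0.19, -0.21 and -0.16. Those of the endothelial genes PECAM1, TEK and CDH5 were -0.12, -0.07 and -0.03, and those of the erythroid genes AHSP, HBB and ALAS2 were -0.14, 0.09 and -0.03.

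SLC2A3, the GLUT3 gene, had the largest difference of the 8 genes and was lower in CD133+ cells. It measured 8.60, 7.09 and 9.91 in CD133+ repetitions 1, 2 and 3, against 10.15, 9.30 and 11.31 in CD133- cells. Every repetition had the lower value in its CD133+ array, yet the fractions overlapped, because CD133+ repetition 3 lay above CD133- repetition 2. The means were 8.53 ± 1.41 in CD133+ and 10.26 ± 1.01 in CD133- cells (SD, n = 3 each), a difference of -1.72, or 3.30-fold less in CD133+ cells. Within repetitions 1, 2 and 3 the difference was -1.55, -2.21 and -1.40. In absolute size it ranked at place 6 among the 18404 genes. In a sorted population, fewer cells expressing a gene and less RNA per cell cannot be told apart.

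The repetitions moved SLC2A3 as much as the sort did. The mean of both fractions was 9.38 in repetition 1, 8.20 in repetition 2 and 10.61 in repetition 3, a range of 2.42 that ranked at place 7 among all genes. Repetition accounted for 55.7% of the variance of SLC2A3, fraction for 42.5% and the remainder for 1.79%. Because of this, a mean that leaves out a single array shifts: the difference was -0.999 without CD133+ repetition 2 and -2.41 without CD133+ repetition 3. With both arrays of repetition 1, 2 or 3 left out it was -1.81, -1.48 or -1.88.

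SLC2A14 is a near-identical copy of SLC2A3 on chromosome 12, separated from it by 28033 bases in GRCh38.p14, and encodes a GLUT protein best known from testis. Probes for either gene may capture transcripts of the other, so both values are uncertain as measures of a single gene. SLC2A14 measured 7.64, 7.02 and 8.22 in CD133+ cells, against 8.07, 7.67 and 8.89 in CD133- cells. It followed SLC2A3 across the 6 arrays (Pearson r = 0.97, a description over arrays that share repetitions), with smaller steps. Its difference was -0.58, lower in 3 of 3 repetitions, and it missed the threshold with repetition as a block (limma adjusted p = 0.0808).

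SLC2A1, encoding the widely expressed carrier GLUT1, went the same way by a smaller amount. It measured 11.13, 10.55 and 11.38 in CD133+ cells, against 11.78, 11.60 and 11.93 in CD133- cells. The fractions did not overlap, the highest CD133+ array lying below the lowest CD133- array. The means were 11.02 ± 0.43 in CD133+ and 11.77 ± 0.16 in CD133- cells (SD, n = 3 each), a difference of -0.75, or 1.68-fold less in CD133+ cells. SLC2A1 was the 1 gene of the 8 whose fractions did not overlap in this direction, a separation that 4.52% of all genes showed. Fraction accounted for 66.6% of its variance and repetition for 27.7%.

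SLC2A1 and SLC2A3 ordered the repetitions alike. Both were lowest in repetition 2 and highest in repetition 3 within each fraction, and for both the largest gap between fractions lay in repetition 2, where SLC2A1 differed by -1.05. Across the 6 arrays their correlation was 0.95, over arrays that share both the sort and the repetitions. The plot of signals by array shows these parallel lines beside the flat or crossing lines of the other transporters.

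**Figure D1:**
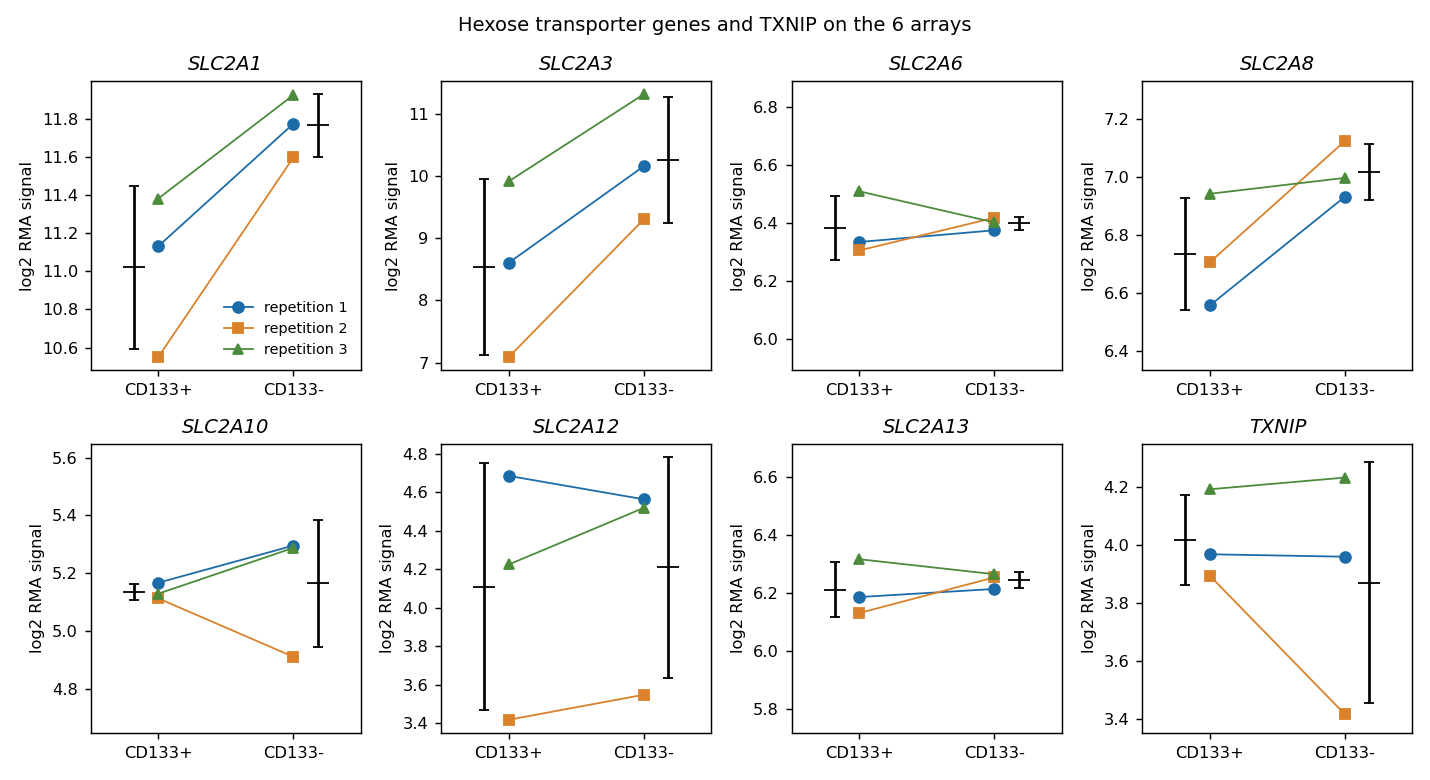
Log2 RMA signal (vertical axes, each spanning at least 1 unit) of the 8 measured genes in CD133+ and CD133- cells. Coloured points joined by lines are the arrays of 1 repetition, and black bars are the mean ± SD of 3 arrays. SLC2A1 and SLC2A3 are lower in CD133+ cells in all 3 repetitions, and the lines of SLC2A12 and TXNIP are set mostly by repetition.

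SLC2A8 encodes GLUT8, a carrier held mainly in intracellular membranes. It measured 6.56, 6.71 and 6.94 in CD133+ cells, against 6.93, 7.12 and 7.00 in CD133- cells. CD133+ repetition 3 lay just above CD133- repetition 1, so the fractions overlapped narrowly. The difference was -0.28, and within repetitions 1, 2 and 3 it was -0.38, -0.42 and -0.06 (SD of the 3, 0.20). Together with SLC2A1 and SLC2A3 it made 3 of 8 genes lower in all 3 repetitions, a pattern that 18.4% of all genes showed.

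SLC2A6, encoding the lysosomal carrier GLUT6, and SLC2A13, encoding the proton-coupled myo-inositol transporter HMIT, barely varied. The SLC2A6 signals ran from 6.31 to 6.51 in CD133+ and from 6.38 to 6.42 in CD133- cells. Those of SLC2A13 ran from 6.13 to 6.32 in CD133+ and from 6.21 to 6.26 in CD133- cells. Their differences, -0.02 and -0.03, were smaller than the SD of the 3 within-repetition differences, 0.11 and 0.09. The range between their repetition means was 0.10 for each gene.

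SLC2A10 encodes GLUT10, whose loss causes arterial tortuosity syndrome. It measured 5.17, 5.11 and 5.13 in CD133+ cells, against 5.30, 4.91 and 5.29 in CD133- cells. The sign of its difference turned in repetition 2 (0.20, against -0.13 and -0.16 in repetitions 1 and 3), and its signal lay under the median of the table.

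SLC2A12 encodes GLUT12, a carrier first found in breast cancer cells. It measured 4.68, 3.42 and 4.22 in CD133+ cells, against 4.56, 3.55 and 4.52 in CD133- cells. Both arrays of repetition 2 lay more than 1 unit under those of repetition 1, and repetition accounted for 96.0% of its variance and fraction for 1.0%. Its difference of -0.10 was smaller than the SD of the within-repetition differences, 0.21. Like SLC2A10, it lay under the median signal of the table, and neither was tested against background.

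**Figure D2:**
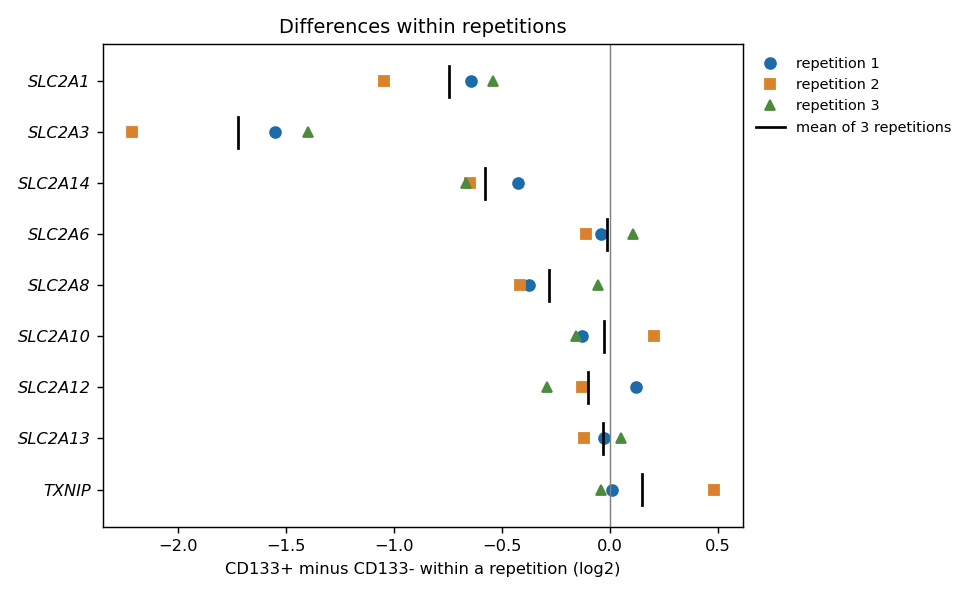
Difference CD133+ minus CD133- within each repetition (horizontal axis, log2) for the 8 measured genes and the copy gene SLC2A14, with points for repetitions and a black line for their mean. SLC2A3 lies between -2.21 and -1.40, SLC2A1 between -1.05 and -0.54, and SLC2A6, SLC2A10, SLC2A12, SLC2A13 and TXNIP have points on both sides of 0.

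TXNIP had no shared direction across the repetitions. It measured 3.97, 3.89 and 4.19 in CD133+ cells, against 3.96, 3.42 and 4.23 in CD133- cells. The fractions overlapped, and CD133- repetition 2 alone stood apart below the others. The means were 4.02 ± 0.16 in CD133+ and 3.87 ± 0.42 in CD133- cells (SD, n = 3 each). The difference of 0.15 arose in repetition 2, at 0.48, while repetitions 1 and 3 had 0.01 and -0.04. All 6 signals lay under the median of the table. On the same arrays, 2093 genes within 0.5 of the TXNIP mean deviated from their own means by a median of -0.06 in CD133- repetition 2, where TXNIP deviated by -0.53. The spread of these deviations over genes was not measured, so how unusual -0.53 is among them is not known.

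Over the 8 measured genes, 7 were lower and 1 was higher in CD133+ cells, with a median difference of -0.07, against -0.01 over all genes. With group as the only term, 0 of the 8 genes were called by limma at an adjusted p under 0.05, where 0.00354% of 28230 probe sets were called. At an unadjusted p under 0.05, 2 of the 8 genes were counted in that fit, against 3.47% of all genes. With the repetition number as a block, 3 of the 8 were counted, against 2141 of all 18404 genes. In the block fit SLC2A3 alone was called at an adjusted p under 0.05, where 0.298% of probe sets were. The genes were chosen on this contrast, and these counts carry no weight of their own.

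The genes most like SLC2A3 were sought among the 78 genes whose SD over the 6 arrays was at least 0.5 times that of SLC2A3, a bound that left out SLC2A1 and SLC2A14. By Pearson r over the 6 arrays they were AHNAK2, a large scaffold protein gene (0.90), SEMA3C, a secreted semaphorin (0.87), KLHL24, a ubiquitin ligase adaptor (0.85), FAT4, a giant cadherin (0.83), and SAT1, the polyamine acetyltransferase (0.81). All 5 were lower in CD133+ cells on average, from -1.19 for SEMA3C to -0.27 for FAT4. They were chosen by correlation with SLC2A3 over these arrays, so a shared direction was favoured by the choice. SEMA3C had the largest sort difference of the 5, smaller than that of SLC2A3, and SAT1, with a range of 2.18 between repetition means, varied mainly with the repetitions. For TXNIP, with 11693 candidates, the closest were MTNR1B, FLT4, ZNF442, PLCB2 and TIGD3 (r = 0.99 each), of which 4 lay under the median signal and TIGD3 averaged 5.92. In each of these 5 genes CD133- repetition 2 held the lowest signal, as it did for TXNIP. Choosing genes by correlation over these same arrays favours such a shared lowest array, so it carries no weight.

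The other hexose carriers, 14 of 14 listed genes measured, did not shift together. They comprised 7 higher and 7 lower genes with a median difference of -0.01, the same as over all genes, and 0 passed in either fit, where 0.369% of genes passed with the block and 0.00543% without it. Beside SLC2A14 the smallest p values belonged to SLC50A1, a sugar efflux protein of the SWEET family, and SLC2A9, the urate carrier GLUT9. SLC50A1 measured 8.19, 8.05 and 8.24 in CD133+ cells, against 8.03, 7.74 and 8.06 in CD133- cells, a difference of 0.22 (limma adjusted p = 0.400 with the block). SLC2A9 differed by 0.19 (limma adjusted p = 0.499 with the block) and was dim.

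The remaining monocarboxylate carriers and their partners gave 8 higher and 6 lower genes among 14 measured of 18 listed. Their median difference was 0.03, and 0 passed in either fit. SLC16A9, a carrier of carnitine, measured 5.52, 6.01 and 5.31 in CD133+ cells, against 5.01, 5.72 and 4.98 in CD133- cells. It was higher by 0.38 in CD133+ cells, in 3 of 3 repetitions, and missed the threshold (limma adjusted p = 0.185 with the block). SLC16A14, an orphan carrier, and SLC16A7, the pyruvate carrier MCT2, differed by 0.28 and 0.21 (limma adjusted p = 0.434 and 0.453 with the block). BSG, the chaperone that brings lactate transporters to the surface, and the mitochondrial pyruvate carrier genes MPC1 and MPC2 were among the genes that did not pass.

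Of the glycolysis enzymes and the genes that set the fate of pyruvate, 30 of 33 listed were measured, 17 higher and 13 lower, with a median difference of 0.02 and 0 calls in either fit. PFKM, the muscle-type phosphofructokinase subunit, had the smallest p: it measured 9.21, 9.10 and 8.92 in CD133+ cells, against 8.91, 8.61 and 8.59 in CD133- cells. Its difference was 0.38, higher in 3 of 3 repetitions (limma adjusted p = 0.182 with the block). ENO3, the muscle enolase, and PFKFB3, which makes the activator of phosphofructokinase, differed by 0.24 and 0.14 (limma adjusted p = 0.402 and 0.572 with the block). HIF pathway genes and targets, 16 measured of 18, split into 8 higher and 8 lower with a median of 0.01 and 0 calls in either fit. EPAS1, encoding HIF-2 alpha, differed by 0.32, VEGFA, the angiogenic factor, by -0.28, and KDM3A, a histone demethylase, by -0.20 (limma adjusted p = 0.273, 0.369 and 0.442 with the block).

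HIF pathway genes, and a few glycolysis genes, differed widely between repetitions. The median range between repetition means was 1.30 for the HIF pathway and 0.44 for glycolysis, against 0.28 over all genes. Of the 16 HIF pathway genes, 13 had their lowest repetition mean in repetition 2, as 42.1% of all genes did. A range of more than 1 between repetition means was seen in 9 of these 16, 4 of the 30 glycolysis genes and 2 of the 8 genes described first, against 1.92% of all genes. NDRG1, a hypoxia-induced gene, measured 10.61, 8.53 and 11.26 in CD133+ cells, against 10.68, 8.63 and 10.92 in CD133- cells. ENO2, the neuronal enolase, measured 10.44, 8.51 and 10.46 in CD133+ cells, against 10.54, 8.41 and 10.40 in CD133- cells. Both genes had similar values in the 2 fractions of a repetition and were much lower in repetition 2 than in the others. These examples, with ALDOC (aldolase C) and PDK1 (pyruvate dehydrogenase kinase), were taken for their range after their values were seen.

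SLC2A3 and ALDOC, alike in their range between repetitions, differed in the share of variance that went with the sort. Repetition accounted for 99.2% and fraction for 0.0064% of the variance of ALDOC, whose repetition range of 2.56 was close to the 2.42 of SLC2A3. Over the 30 glycolysis genes the median share of fraction was 2.09%, and over the 16 HIF pathway genes 1.43%, against 8.21% over all genes. What differed between the repetitions is not stated in the labels, and its part in the transporter levels was not tested.

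**Figure D3:**
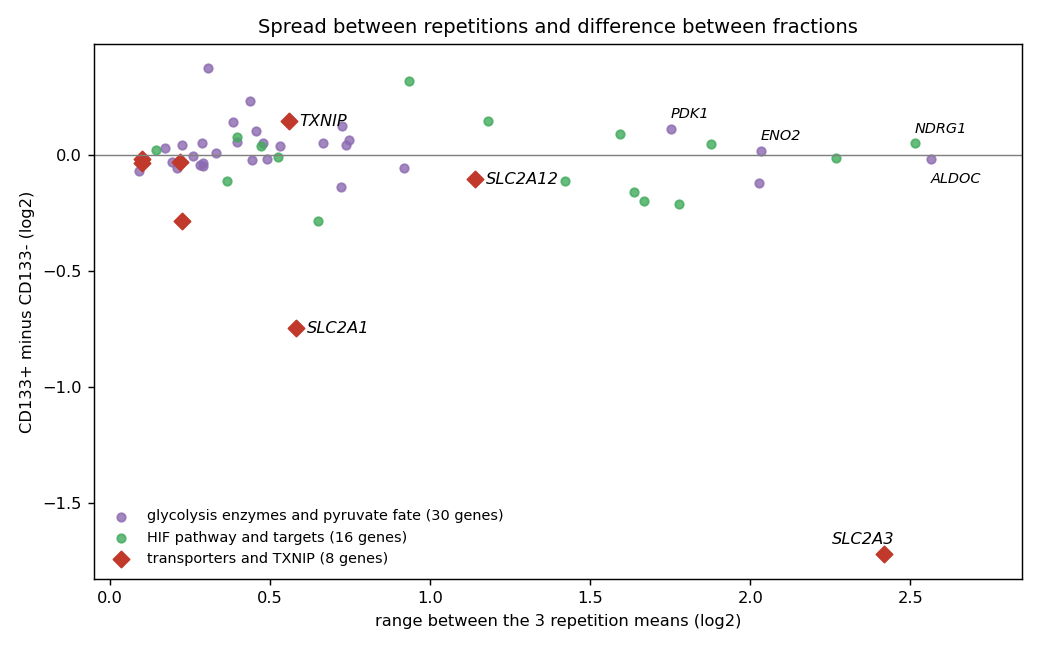
Range between the 3 repetition means (horizontal axis, log2) against the difference CD133+ minus CD133- (vertical axis, log2), 1 point per gene, for 7 transporter genes and TXNIP (red diamonds), 30 glycolysis genes (purple) and 16 HIF pathway genes (green). The glycolysis and HIF genes spread along the horizontal axis within 0.38 of 0, and SLC2A3 combines a range of 2.42 with a difference of -1.72.

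Among genes that move transporters in the cell or sense energy supply, 14 measured of 15, 1 passed with the block. That fit called 0.369% of all genes. PRKAA2, encoding the alpha-2 catalytic subunit of AMPK, the kinase that senses low energy and phosphorylates TXNIP, fell in CD133+ cells in that fit. It measured 5.94, 5.76 and 6.17 in CD133+ cells, against 6.55, 6.51 and 7.04 in CD133- cells. The fractions did not overlap, as in 4.52% of all genes in this direction. The difference was -0.74 (SE 0.09), lower in 3 of 3 repetitions. The limma adjusted p was 0.0418 with the block and 0.788 with group as the only term. Because the list was chosen with earlier results of these data known, these values are not an independent test. The call with the block ended without repetition 1, 2 or 3 (limma adjusted p = 0.0783, 0.141 and 0.226). PRKAA1, the alternative catalytic subunit, named after its values were seen, differed by 0.08 and did not pass (limma adjusted p = 0.761 with the block). PRKAG2 and PRKAB2, regulatory subunits of the same kinase, differed by -0.19 and -0.16 (limma adjusted p = 0.467 and 0.598 with the block). Over the list 7 genes were higher and 7 lower, with a median of -0.01.

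Regulators and relatives of TXNIP gave 9 higher and 3 lower genes among 12 measured of 13, with a median difference of 0.10, against -0.01 over all genes, and 0 passed in either fit. ARRDC1, an arrestin-domain gene of vesicle budding, measured 7.26, 7.18 and 7.36 in CD133+ cells, against 7.08, 6.90 and 6.99 in CD133- cells. Its fractions did not overlap and its difference was 0.28, but it did not pass (limma adjusted p = 0.308 with the block). Fractions apart in this direction were seen in 631 of all 18404 genes. MLXIPL and ARRDC3 differed by 0.24 and 0.25 (limma adjusted p = 0.453 and 0.524 with the block).

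Of these 12 genes, repetition 2 had the lowest mean in 4 and repetition 3 the highest in 5, where 42.1% and 43.0% of all genes did. Of the arrestin-domain genes, ARRDC3 and ARRDC4 had the same order as TXNIP, ARRDC4 being chosen for its range after its values were seen. ARRDC3, an adaptor for receptor degradation, measured 9.75, 8.75 and 10.24 in CD133+ cells, against 9.22, 8.47 and 10.31 in CD133- cells. ARRDC4, whose promoter stretch is printed above, measured 7.11, 6.68 and 7.70 in CD133+ cells, against 6.90, 6.88 and 7.97 in CD133- cells. In both genes and in TXNIP, repetition 2 had the lowest mean and repetition 3 the highest. Their ranges between repetition means were 1.66 and 1.06, against 0.56 for the dimmer TXNIP, whose signal was not tested against background. In the CD133- arrays of ARRDC4, repetitions 1 and 2 were level. ARRDC2, also chosen after its values were seen, had a range of 0.27. The order is the one seen for SLC2A3 and SLC2A1, whose levels per repetition, like those of TXNIP, were known when they were chosen. How many of all genes had this whole order was not counted, so the shared order carries no weight. The sort difference of ARRDC4 was -0.09 and changed sign between repetitions.

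**Figure D4:**
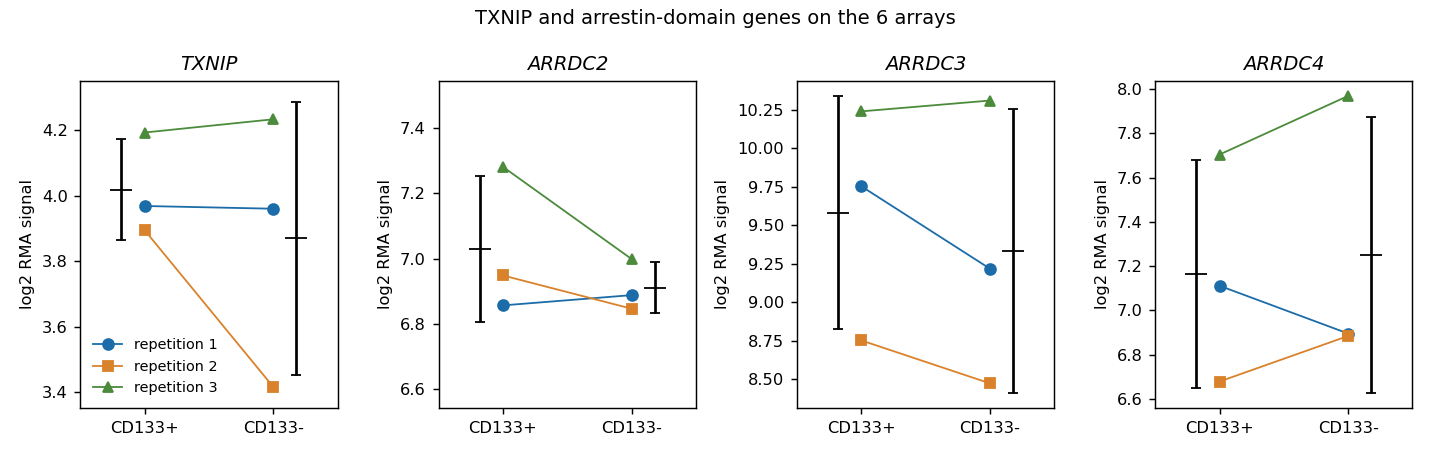
Log2 RMA signal (vertical axes, each spanning at least 1 unit) of TXNIP and 3 arrestin-domain genes in CD133+ and CD133- cells. Coloured points joined by lines are the arrays of 1 repetition, and black bars are the mean ± SD of 3 arrays. Repetition 3 lies highest in all 4 panels, and no gene is moved by the sort in the same direction in all 3 repetitions.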

How the data were processed

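RNA of the sorted HCT116 fractions was labelled with biotin and measured on Affymetrix arrays, per the labels. The deposited values are log2 signals that the authors made with RMA, per the submitters' processing notes. No version is stated there. The log2 scale follows from their range, 1.09 to 13.7. Although the design text says U133, the deposited rows match the annotation of a Gene ST array, and this annotation named the genes.

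The table had 32321 rows. The 4091 rows ahead of the first annotated row were dropped as controls, leaving 28230 probe sets: 19158 with 1 gene symbol, 1388 with several and 7684 with none. A gene with several probe sets was read from the brightest, which gave 18404 genes. All 28230 probe sets were fitted with limma 3.58.1 (R 4.3.3) on fraction alone. Benjamini-Hochberg adjustment ran over all of them with a threshold of 0.05. The code was tested on simulated data. The number of arrays limits the precision.

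Same-numbered arrays deviated from their fraction means together, with correlations of 0.447 to 0.616 in the 3 pairs, all above the bound of 0.1. The pairing comes from the data and not from the labels. Values from a fit that blocks on repetition are given wherever it alters a call or a count.

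The genes, lists and tests were chosen with earlier results of these data known. From each list the text names every gene that passed in either fit, filled up to 3 by the smallest unadjusted p with the block. Alternatives comprised the block, left-out arrays and repetitions, repeated quantile normalization, median centring, filters on dim probe sets, the mean of probe sets, all rows kept and a variance trend.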

Additional observations from a re-analysis of the deposited data

How the results depend on the processing

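With group as the only term limma called 1 probe set (974 at an unadjusted p under 0.05), and 84 with the replicate block (3202 at an unadjusted p under 0.05). The count was 0 after repeated quantile normalization, centring on array medians, a filter at a mean signal of 6 and with all rows kept (1102, 906, 402 and 1036 at an unadjusted p under 0.05). It was 0 to 2 when an array was left out, and with the block it was 43, 18 and 0 without repetition 1, 2 and 3. SLC2A1, SLC2A3 and SLC2A8 kept their sign in 16 of 16 alternatives, within -0.93 to -0.51, -2.41 to -0.999 and -0.40 to -0.19. The sign turned in 3 of 16 alternatives for SLC2A6, 2 of 16 for SLC2A13, 4 of 14 for SLC2A10, 3 of 14 for SLC2A12 and 2 of 14 for TXNIP. The filters left out the last 3 as dim. Leaving out an array, which unbalances the repetitions, gave list medians of 0.0032 to 0.055 for monocarboxylate carriers, -0.087 to 0.10 for glycolysis, -0.42 to 0.33 for HIF and -0.058 to 0.062 for transporter traffic. With the block, the HIF median was 0.0031, -0.0054 and -0.049 without repetition 1, 2 and 3, that of transporter traffic -0.057 without repetition 2 and that of TXNIP relatives 0.034 without repetition 3. The monocarboxylate median was 0.065 with either filter, over fewer genes. The HIF median was -0.0083 after repeated quantile normalization; the cause was not tested. Beyond the counts and the calls of SLC2A3, PRKAA2 and PROM1, the block changed no call given here.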
